A study of Mus musculus with 25 samples.

Results

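Late elongating spermatids were taken as the Drop-seq barcodes of wild-type (WT), Cul4a and CNP testes that met 3 conditions. A barcode held at least 300 unique molecular identifiers (UMIs, each standing for 1 captured transcript), at least 1% of its UMIs lay over Prm1, Prm2, Tnp1 and Tnp2, and it had more UMIs summed over 7 late genes (Car2, Spata3, Ttc24, Paqr5, 1700015G11Rik, H2afb1 and Oaz3) than over 7 early genes (Prss58, Gm136, Tfam, Tex37, Cstl1, Gm11634 and Prss52). The rule selected 18530 of the 36240 barcodes in these 15 libraries, and the whole series held 48642 barcodes in 25 libraries. The members comprised 14830 WT, 3378 Cul4a and 322 CNP barcodes. A further 1959 barcodes had the sums the other way round and are called early below, 3180 had equal sums and 8328 fell below 1%. All of these values chose the members, so the levels of these 18 genes are given as descriptions.

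Whole testes of male mice were dissociated, and single cells were captured with barcoded beads that count the 3′ ends of transcripts. The 11 WT libraries came from C57BL/6 mice aged from 3 months 1 day to 9 months 14 days, and WT1 and WT2 were dissociated enzymatically while the other 9 WT libraries and all mutant libraries were dissociated mechanically. The 2 Cul4a libraries came from Cul4a-/- mice on a B6;129 background, aged 1 month 18 days and 1 month 21 days by the labels. The 2 CNP libraries came from C57BL/6 mice with the CNP eGFP BAC TRAP transgene, aged 2 months 14 days and 2 months 16 days; the study's own list gives the ages of the mutant strains the other way round. In such a line a bacterial artificial chromosome around Cnp, a gene of myelinating glia, carries the tag, and the labels do not give its insertion site. Strain, age and the day of the experiment cannot be told apart for either mutant, nor can the B6;129 background for Cul4a. Used only to check the rule were 6 mechanically dissociated libraries of Mlh3-/- testes (B6;129, aged from 2 months 21 days to 8 months 30 days) and 4 sorted libraries, C57BL/6 by the labels. Sorted spermatogonia came from Pou5f1-EGFP mice of 7 days, pooled from littermates, and the study lists these mice as B6;CBA. Primary spermatocytes, secondary spermatocytes and spermatids came from wild-type mice of 2 months 21 days, sorted with a Hoechst stain. The study counts each WT library as 1 animal; for the mutants the labels say only that the samples are separate, so p-values measure the spread between these samples.

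Elongating spermatids are haploid germ cells that replace histones first with transition proteins and then with protamines, compact the nucleus, build a flagellum and shed most of their cytoplasm. Transcription stops as the chromatin condenses, so mRNAs for the last steps are made earlier in round spermatids and kept in store. Prm1, Prm2, Tnp1 and Tnp2 encode the protamines and transition proteins, and Oaz3 encodes an antizyme that limits polyamines in spermatids.

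Promoter sequences of Prm1, Tnp1, Spata3 and Gapdhs (a sperm glycolytic enzyme) are shown because these genes define or mark the members and each holds a match to the 8-base motif TGANNTCA within 250 bases before its RefSeq start. This motif reads the same on both strands and includes the cyclic AMP response element TGACGTCA; factors of the CREM family are known to act on such sequences in round spermatids. Each sequence is the last 120 bases before the start, on the gene's strand, in RefSeq's GRCm38.p6 build, with motif matches in capitals.
Prm1 (chr16:10796824-10796943, minus strand): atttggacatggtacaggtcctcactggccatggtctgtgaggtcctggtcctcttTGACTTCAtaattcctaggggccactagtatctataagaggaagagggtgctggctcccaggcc
Tnp1 (chr1:73015900-73016019, minus strand): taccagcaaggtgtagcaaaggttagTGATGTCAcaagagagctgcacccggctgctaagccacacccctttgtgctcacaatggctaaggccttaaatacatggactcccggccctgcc
Spata3 (chr1:86021825-86021944, plus strand): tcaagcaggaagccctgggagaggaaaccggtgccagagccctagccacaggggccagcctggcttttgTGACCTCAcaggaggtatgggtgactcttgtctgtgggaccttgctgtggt
Gapdhs (chr7:30743682-30743801, minus strand): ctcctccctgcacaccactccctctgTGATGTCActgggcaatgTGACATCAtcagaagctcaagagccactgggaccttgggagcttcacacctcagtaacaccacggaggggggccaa
The match began 64 bases before the start in Prm1, 94 in Tnp1 and 51 in Spata3. The windows of Prm2, Tnp2, Ttc24 and Paqr5, and that of the midpiece gene Smcp, held no match, which says only that these letters are not in these windows, and Car2, 1700015G11Rik, H2afb1 and Oaz3 had no entry in the promoter table. Of 27025 genes with a window, 13.5% held the motif, and 1.77% held TGACGTCA itself. A match is a description of the letters, not a binding site.

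The 15 libraries held 357235 to 9745302 UMIs, of which the members gave 62307 to 4026207 (20299181 in all). Members per library ranged from 44 in WT1 to 2004 in WT11, with 228 and 94 in the CNP libraries. No barcode was removed as a doublet. Any pair of libraries shared at most 27 barcodes and at most 4 members, and 36 of 105 pairs shared a member. Within libraries, 991 pairs of barcodes differed by a shift of 1 base, and 1890 members (10.2%) stood in such a pair. WT3, a MiSeq library, stood apart in several member values, and WT4 and WT5 had the lowest Prm1 to Prm2 ratios of UMIs, 0.490 and 0.382 against 0.579 to 1.15 in the other libraries. The rule also selected 110 barcodes of sorted spermatids (36.8% of them) but 0 barcodes in the 6 libraries of Mlh3 testes.

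The label was only partly borne out by the members. Their share of UMIs over Prm1, Prm2, Tnp1 and Tnp2, called the protamine share below, was under 5% in most barcodes: 3168 members (17.1%) had 1 to 2%, 10868 (58.7%) had 2 to 5%, 2064 (11.1%) had 5 to 10% and 2430 (13.1%) had 10% or more. The barcodes with 10% or more made up 9.17% of WT, 30.2% of Cul4a and 15.8% of CNP members. Among mechanical WT libraries this part ranged from 0.683% in WT5 to 47.6% in WT3. Divisions of the members by protamine share were made after the values were seen.

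**Figure D1:**
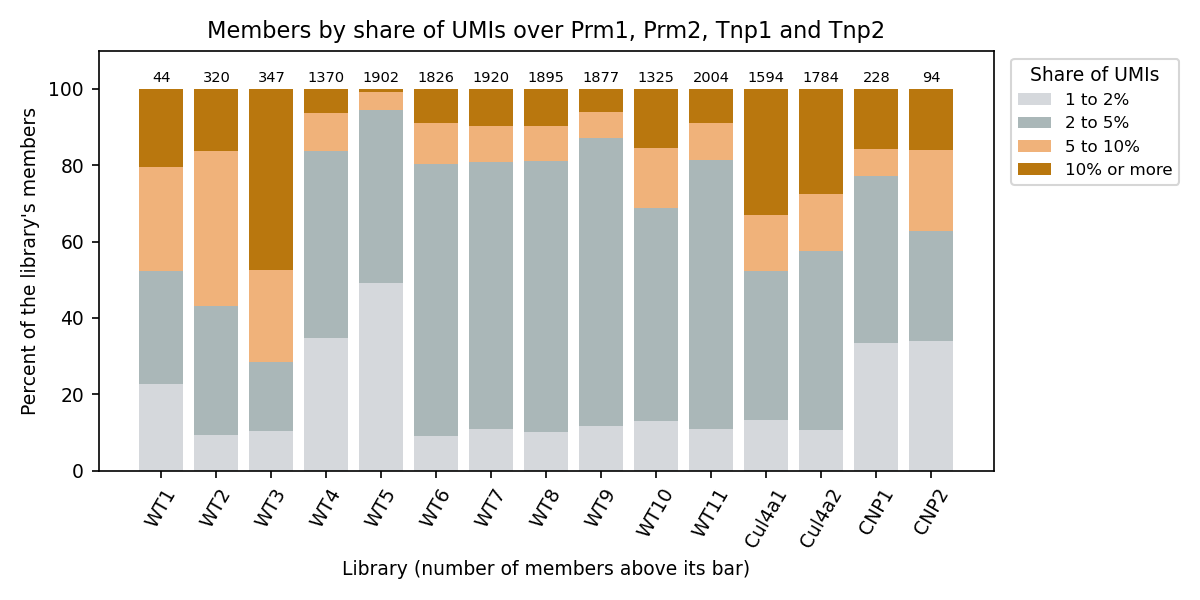
Stacked bars give the percent of each library's members (y axis) by their share of UMIs over the 4 protamine and transition protein genes, for the 15 libraries (x axis), with the number of members above each bar. Members under 5% (grey) were the larger part of every library except WT2 and WT3.

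Members under 5% carried many transcripts of earlier germ cells. The 8 spermatocyte markers summed to a median of 1541 CPM (UMI counts scaled to the same total in every library) over 15 libraries in members with 1 to 5% and to 336 CPM in those with 10% or more. The 7 round spermatid markers summed to 2723 CPM and 812 CPM in the same classes. The 6 late markers had 11648 CPM and 53893 CPM, but all are genes of the rule and Prm1 is among the genes that split the classes, so this does not bear on the label. Low protamine shares were also found in barcodes with somatic markers. These 222 barcodes had at least 5 UMIs and at least 1% of UMIs over markers of somatic cells, and were not checked for doublets. Their pooled protamine share was 0.281% to 3.86% per library (median 1.46%), and 91 of them met the rule. In WT they were 84 barcodes over 11 libraries. Members with 1 to 5% pooled to 2.09% to 3.92%, and members with 10% or more to 11.2% to 16.1%. The first range overlaps that of the somatic barcodes, but these include members, so part of the overlap is set by the rule. In the Mlh3 testes, where no barcode met the rule, the somatic barcodes held at most 0.000374%. The part of free RNA in the members under 5% was not tested, and results are therefore given for all members and, beside them, for members with 10% or more.

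The thresholds cut through dense parts of the data. A margin of 1 UMI placed 4156 members on the late side and 1287 barcodes on the early side, while 2142 barcodes had equal sums above 0 and 1038 had 0 UMIs on both sides. From 300 to under 330 UMIs lay 428 members, and 308 barcodes with 270 to under 300 UMIs met the other conditions. A share of 1.0 to 1.1% was held by 219 members, and 225 barcodes with 0.9 to 1.0% met the rest.

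Car2, a carbonic anhydrase, ran from 136 to 511 CPM (median 379) over 14 libraries in members with 1 to 5% and from 841 to 1939 CPM (median 1147) in members with 10% or more. Spata3, a testis gene of spermatids, had medians of 1246 and 3643 CPM in these classes. Oaz3 had 2239 and 4922 CPM. These classes did not overlap between libraries for Car2, Spata3 or Oaz3, but the early genes of the rule were higher with protamine share as well. Tfam, which packs mitochondrial DNA, had medians of 308 and 1370 CPM, and Tex37 had 342 and 1461 CPM. Late and early genes of the rule thus both stood higher at the higher protamine share, and these values describe the choice of members.

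**Figure D2:**
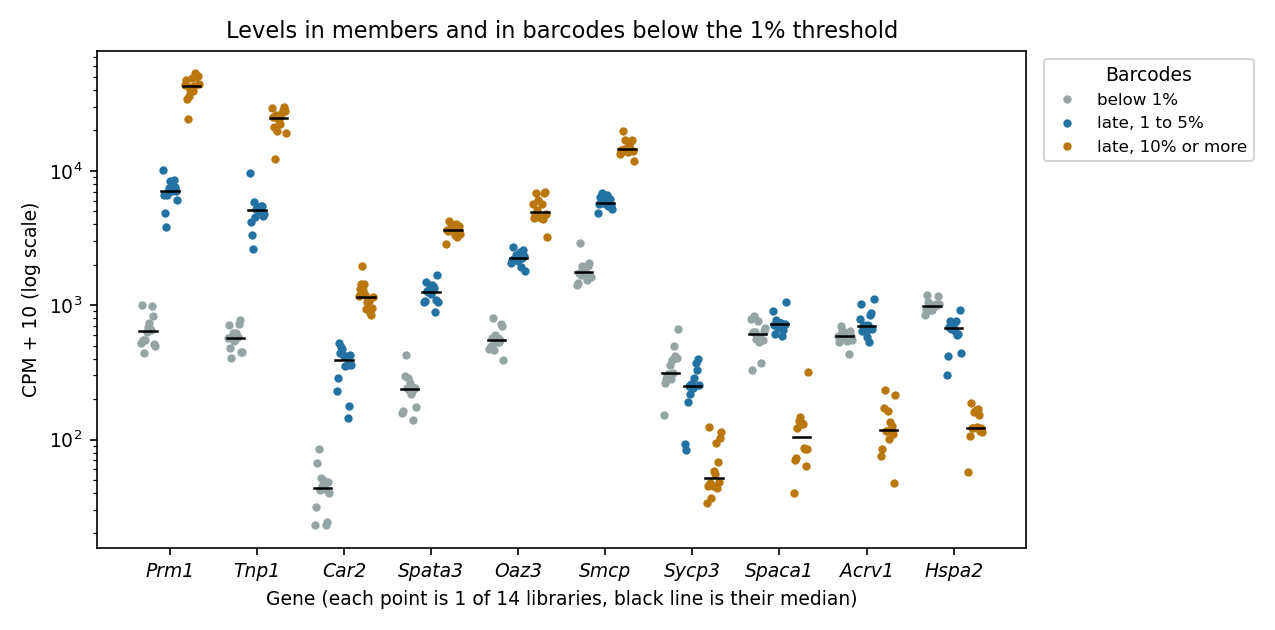
Points give the level of 10 genes (CPM + 10, log scale) in 14 libraries for barcodes below 1%, members with 1 to 5% and members with 10% or more, with the median as a black line; WT1 is left out because 9 of its members reached 10%. Prm1, Tnp1, Car2, Spata3, Oaz3 and Smcp were highest with 10% or more, while Sycp3, Spaca1, Acrv1 and Hspa2 were lowest there.

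Genes outside the rule were compared between the members with 10% or more and those under 5%. In 14 libraries with at least 10 members of both kinds, 3742 genes outside the rule reached a median of 50 CPM in either class. A gene was counted as higher or lower where its median log2 ratio of CPM + 10 passed 1 with the same sign in every library. By this count 222 genes were higher (5.93%) and 1360 lower (36.3%) with 10% or more, and the median over all genes was -0.98, so values are best read against that shift; the manchette, motility and mitochondrially encoded lists had medians of -0.96, -0.97 and -1.10, close to it. The protamine share that split the members is part of the rule, so these ratios carry no test.

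Genes of chromatin compaction stood on both sides. Prm3, a protamine-like protein of the cytoplasm, had medians of 2199 CPM with 10% or more and 786 CPM under 5%, a log2 ratio of 1.62. H1fnt, the spermatid linker histone, had a log2 ratio of 1.31. Hils1, another spermatid linker histone, had 0.44 and did not pass. Brdt, which binds acetylated histones before their removal, had a ratio of -1.78, and the demethylase gene Kdm3a had -1.81. In all, 2 of 7 list genes outside the rule were higher and 2 lower.

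Flagellar genes stood on both sides. Of 12 genes of the outer dense fibres and fibrous sheath, 2 were higher and 3 lower (median -0.10). Akap4, the main scaffold of the fibrous sheath, had 2137 and 879 CPM (1.39), and Spa17 had 4338 and 2159 CPM (1.03). Odf2 of the dense fibres came close with 0.92. Fsip1, Fsip2 and Ropn1l had ratios of -2.01, -2.45 and -1.41. Of 19 genes of motility, calcium entry and sperm kinases, 2 were higher and 9 lower: the testis kinases Tssk6 (1.43) and Tssk3 (1.13) against the calcium channel genes Catsper1, Catsper2, Catsper3, Catsper4 and Catsperb (-1.46 to -2.17).

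Smcp, which coats the mitochondria of the sperm midpiece, reached 14447 CPM with 10% or more and 5790 CPM under 5%, a ratio of 1.34. It was the 1 higher gene of 12 in the mitochondrial sheath list, in which 8 were lower (median -1.68). The lower genes included Cyct, the testis cytochrome c, with 31.2 and 204 CPM (-2.36), and Vdac2, an outer membrane channel, with -2.39. Of 8 genes encoded by the mitochondrial genome 3 were lower and 0 higher. UMIs of these genes were 0.335% to 0.941% of the total with 10% or more and 0.330% to 3.15% under 5%, and were the smaller share with 10% or more in 13 of 14 libraries.

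Sperm glycolysis was the list with the highest median, 0.53. Gapdhs had 4444 and 1610 CPM (1.46), and Gpi1 had 483 and 166 CPM (1.57). Hk1, Pgk2, Pgam2 and Aldoart1 had ratios between 0.53 and 0.99 and did not pass. Ldhal6b, Pfkp and the lactate transporter gene Slc16a7 were lower, at -1.53, -1.95 and -1.35. The list held 15 genes, of which 2 were higher and 3 lower.

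The list of cytoplasm removal and ubiquitin genes had 3 higher genes and 0 lower of 14. Spem1, needed for stripping cytoplasm from the sperm head and neck, had 1403 and 407 CPM (1.81). The ubiquitin conjugating enzyme gene Ube2j1 had 1.21, and the ubiquitin ligase gene Rnf133 had 1.35.

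Of 18 acrosome genes measured, 14 were lower and 0 higher, with a median of -2.16, beside 36.3% lower and a median of -0.98 for all genes. Spaca1, an acrosomal membrane protein, had 94.5 CPM with 10% or more and 710 CPM under 5% (-2.72). Acrv1 had 107 and 692 CPM (-2.52), and Zpbp, a binder of the egg coat, had 86.4 and 508 CPM (-2.47). Izumo3 was near 0 (0.05).

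The lists of haploid transcription and of stored mRNA had medians of -1.64 and -1.27, beside -0.98 for all genes. Tbpl1 and Gtf2a1l, the testis forms of basal transcription factors, had ratios of -2.21 and -1.77, and 5 of 10 list genes were lower against 1 higher, the bHLH factor gene Spz1 (1.23). Crem, a cyclic AMP response factor, had 116 and 347 CPM (-1.51) but did not keep 1 sign in every library. Among 11 genes of stored mRNA, 7 were lower, led by Pabpc1, the poly(A) binding protein, with 1045 and 5546 CPM (-2.37). Paip2, an inhibitor of poly(A) binding protein, was the 1 higher gene (1.07).

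The manchette list held 0 higher and 5 lower genes of 12. Sun5, which ties the tail to the nucleus, had -2.03, while Hook1, which positions the manchette, had 0.84 and did not pass.

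**Figure D3:**
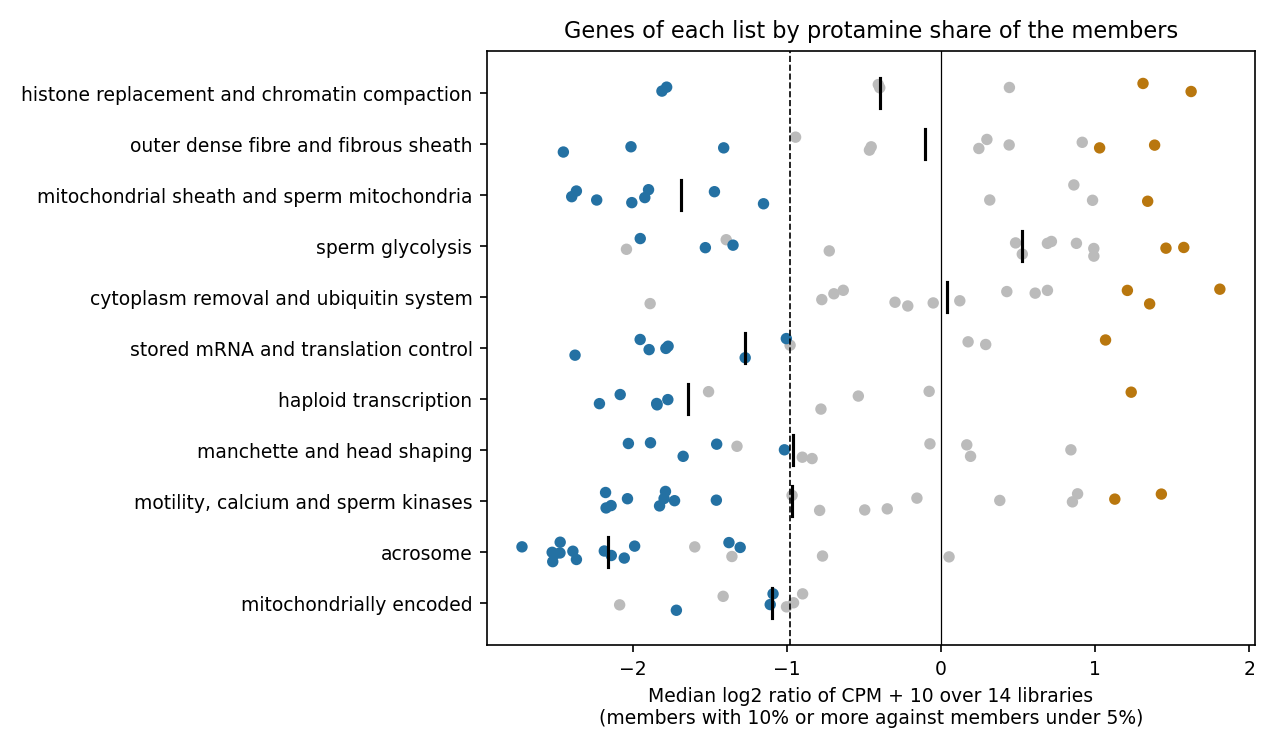
Each point is a gene outside the rule; its x position is the median log2 ratio of CPM + 10 over 14 libraries between members with 10% or more and members under 5%, and rows are gene lists with their median as a black bar. Orange and blue points passed a ratio of 1 with 1 sign in every library; the dashed line is the median of all 3742 genes, -0.98, and 14 of 18 acrosome genes are blue.

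Outside the lists, the genes with the largest ratios toward 10% or more were Defb33, a defensin gene (384 and 61.0 CPM, 2.46), the kallikrein gene Klk1b8 (1144 and 184 CPM, 2.37), Cby3 (244 and 48.8 CPM, 2.25) and 1700042G07Rik (1186 and 236 CPM, 2.23). Klk1b26 and Klk1b9, of the same kallikrein family, followed with 2.14 and 1.94. Close family members can share reads, so the division of UMIs among Klk1b genes is uncertain. The largest ratios the other way were those of Tbc1d23 (15.9 and 208 CPM, -3.16), Fam209 (96.1 and 831 CPM, -3.05), 1700001P01Rik (36.3 and 333 CPM, -3.05) and Tex36 (38.3 and 346 CPM, -3.04). Histone genes were also among the 15 largest: H3f3b, a replacement histone, had 106 and 680 CPM (-2.71) and Hist1h2bp had 17.2 and 219 CPM (-2.71).

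Promoter letters and chromosome differed along the same division. TGANNTCA stood within 250 bases before the start of 43 of the 154 higher genes that had a window (27.9%), 118 of 1017 lower genes (11.6%) and 14.96% of genes at 50 CPM. TGACGTCA itself stood in 4.55%, 3.54% and 4.08% of these. UMIs of X-linked genes, as a percent of autosomal UMIs and without the genes of the rule, were 2.07 to 2.52 with 10% or more and 1.24 to 2.12 under 5%, and were higher with 10% or more in 14 of 14 libraries.

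No gene outside the 18 passed the same count between members and early barcodes. Early barcodes numbered only 15 in CNP 2 and 27 in WT3, so 1 sign in every library is a strict demand for genes of low level. In the 14 libraries with at least 10 barcodes of both kinds, 3493 genes were measured, and 0 passed a log2 ratio of 1 with 1 sign in every library in either direction (0% of genes; median over all genes -0.05). Isg20l2, a nuclear exonuclease gene, had 248 CPM in late and 147 CPM in early barcodes, with a median ratio of 0.70 and 0.10 as its lowest. Ubl4b, a spermatid ubiquitin-like gene, had 655 and 441 CPM (0.57), and Gapdhs had 2480 and 1659 CPM (0.48). On the other side stood Glipr1l2 (63.6 and 121 CPM, -0.78), the heat shock factor gene Hsf5 (-0.57), the mitochondrial ribosomal RNA mt-Rnr2 (13380 and 18395 CPM, -0.28) and Ldhc, the testis lactate dehydrogenase (-0.09). Each kept its sign in 14 of 14 libraries, which was part of how these genes were chosen. The list medians lay between -0.40, for the 1 measured Leydig marker, and 0.23. With 10% or more, only 4 libraries held 10 early barcodes, and 127 genes were higher and 53 lower there, from 10 to 16 early barcodes a library. The same sign in 4 libraries is a weaker demand than in 14. These counts therefore cannot be set beside the 0 above and do not show a larger difference.

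The share of members among barcodes with at least 300 UMIs and 1% over the 4 genes is the outcome of the rule and is described without a test. It ran from 71.8% to 85.0% (median 77.3%) in the 9 mechanical WT libraries, was 89.7% and 86.5% in the Cul4a libraries and was 60% and 59.5% in the CNP libraries. The Cul4a libraries lay above every WT library and the CNP libraries below every one. The difference was 10.5 percentage points for Cul4a and -17.8 for CNP. Depth moved with the Cul4a value: members had a median of 1286.5 and 979.5 UMIs in the Cul4a libraries and of 400 to 892 in mechanical WT. The enzymatic libraries WT1 and WT2 had 1527 and 453. The rule sets the minimum of 300 UMIs behind these medians, so no test is given. With each barcode thinned to 300 UMIs the Cul4a difference was 1.80 points, with both Cul4a libraries within the WT range, and the CNP difference -13.6 points. With at least 500 UMIs they were 6.07 and -5.54 points. In CNP more barcodes had equal sums, 27.4% and 31.0% against 8.33% to 18.2% in mechanical WT.

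**Figure D4:**
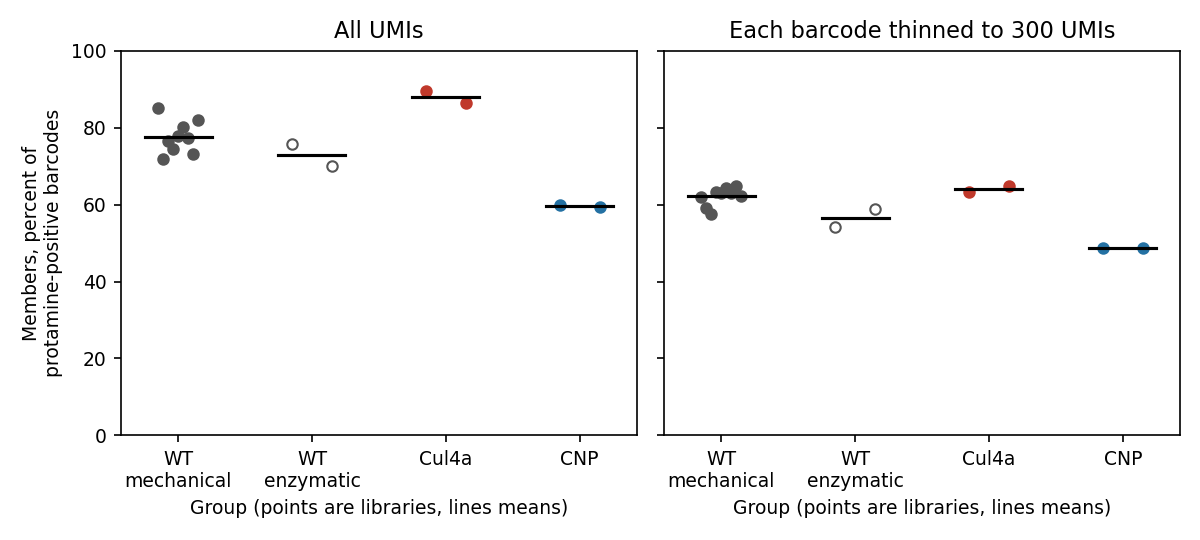
Points are libraries and black lines group means of the percent of protamine-positive barcodes that met the rule (y axis, from 0), for WT by dissociation, Cul4a and CNP (x axis), with all UMIs on the left and each barcode thinned to 300 UMIs on the right. The Cul4a libraries lie above every mechanical WT library on the left and within their range on the right, while the CNP libraries lie below them in both panels.

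Gene levels in the members were compared between strains on UMIs summed per library with edgeR's quasi-likelihood test; in such sums, fewer cells with a transcript and less RNA per cell cannot be told apart. The 9 mechanical WT libraries were the reference, and a gene was called at an adjusted p under 0.05.

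Cul4a encodes the scaffold of a ubiquitin ligase. Its own UMIs did not separate the strains: 2.14 to 34.0 CPM (median 29.0) in WT members and 31.5 and 23.9 CPM in Cul4a members, a log2 difference of 0.19 ± 0.23 (SE; adjusted p = 0.612 by edgeR). Drop-seq counts 3′ ends, which need not lie in the deleted part of the gene, so this count does not check the genotype. Grtp1, a GTPase activating protein gene 24.1 kb from Cul4a on chromosome 8 (chr8:13172022-13200620, GRCm38, minus strand), did separate them. Its members' level was 62.1 to 141 CPM (median 110) in WT and 0.497 and 1.26 CPM in Cul4a, from 2 and 5 UMIs, and it fell by 6.64 ± 0.41 on the log2 scale (adjusted p = 1.5e-18, edgeR). With 10% or more it was 0 CPM in both Cul4a libraries. Within 500 kb of Cul4a 8 genes reached 20 CPM. Rasa3, at 419 kb, was higher by 0.64 (adjusted p = 0.0244, edgeR), though not with 10% or more (0.58, adjusted p = 0.075), and the other 6 were not called, Lamp1 among them with -0.35.

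Between Cul4a and WT, 19174 genes were tested in all members, of which 2339 were higher (12.2%) and 823 lower (4.29%), with a median of 0.23 over all genes. Both Cul4a libraries lay above every mechanical WT library in 8.54% of genes and below every one in 6.03%. The balance hung on low counts and on the members used: with edgeR's filterByExpr 1134 were higher (11.3%) and 1057 lower (10.5%) of 10052, with a median of -0.02, and in members with 10% or more 749 were higher (5.74%) and 110 lower (0.844%) of 13040. DESeq2 called 969 and 880 in all members, and 72 and 87 in those with 10% or more. Leaving out Cul4a 1 or Cul4a 2 leaves 1 Cul4a library, with the spread taken from the other groups, so calls from those fits are not given. Markers of other cells were called as well. The Leydig list had 6 of 7 genes higher, with summed levels of 382 and 563 CPM against 106 to 286 CPM in WT, and the Sertoli list 4 of 7 (387 and 419 CPM against 192 to 382 CPM). The spermatogonium list had 5 of 7 higher (59.1 and 73.8 CPM against 14.98 to 39.0 CPM), the spermatocyte list 1 higher and 1 lower of 8, the macrophage list 1 of 7, and the telocyte and erythroid lists 0. With 10% or more the Leydig list had 2 higher, the macrophage list 1, the Sertoli list 0 higher and 1 lower, the spermatogonium list 0, and the erythroid list 3 lower. Their part in the calls was not tested.

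The genes of the rule chose the members, so their levels in Cul4a are given without a test; their median log2 difference was 0.77. Prm1 ran from 5272 to 26807 CPM (median 14171) in WT and was 29245 and 27517 CPM in Cul4a, above every mechanical WT library, a log2 difference of 1.14 in all members and of 0.67 with 10% or more. Tnp1 had differences of 1.101 and 0.66. Protamine share differed along with them, as given above. Oaz3 had differences of 0.79 in all members and 0.76 with 10% or more, with 2588 to 3469 CPM (median 2950) in WT and 4453 and 4768 CPM in Cul4a. The late genes did not all stand higher. Car2 had 475 and 503 CPM in Cul4a, within the 448 to 839 CPM of mechanical WT. With 10% or more Car2 had 864 and 841 CPM in Cul4a, below every mechanical WT library (921 to 1939 CPM). Spata3 had 2004 and 2456 CPM in Cul4a and 1534 to 2335 CPM in mechanical WT.

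The spermatid lists were counted outside the rule's genes. Their counts stand beside 12.2% higher and 4.29% lower of all genes, and 5.74% and 0.844% with 10% or more. Among genes kept by filterByExpr, which drops low counts, the shares in all members were 11.3% higher and 10.5% lower. Of 10 chromatin compaction genes outside the rule 1 was higher and 3 lower. Hils1 had 1122 to 2406 CPM (median 1512) in WT and 2252 and 2413 CPM in Cul4a; it rose by 0.73 in all members (adjusted p = 0.029) and by 0.81 with 10% or more (adjusted p = 0.0015, edgeR). Psme4, whose product takes acetylated histones to the proteasome, had 606 to 899 CPM (median 831) in WT and 398 and 377 CPM in Cul4a and fell by 0.83 in all members (adjusted p = 0.0057) and by 0.75 with 10% or more (adjusted p = 0.012, edgeR). Brdt and Kdm3a fell in all members, with -0.65 and -0.58, but were not called with 10% or more.

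In the tail, Odf1 of the outer dense fibres rose by 0.81 (172 to 462 CPM in WT, 558 and 531 CPM in Cul4a; adjusted p = 0.011, edgeR), and Fsip1 and Fsip2 fell, with -1.15 and -1.105. With 10% or more Odf1 (0.65) and Ropn1l (0.63) were called higher and Fsip2 (-0.79) lower. Catsperd, an accessory subunit of the sperm calcium channel, had 86.1 to 110 CPM (median 102) in WT and 160 and 161 CPM in Cul4a and rose by 0.86 (adjusted p = 0.00069) and by 1.35 with 10% or more (adjusted p = 2.4e-07, edgeR). Catsper2 had -0.78 in all members (adjusted p = 0.014, edgeR) but was not called with 10% or more (-0.64, adjusted p = 0.15). In the motility list 1 gene was higher and 2 lower of 19, and with 10% or more 2 were higher and 0 lower.

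Sheath and energy genes had 4 higher and 1 lower of 13 and 2 higher and 2 lower of 15. Beside 12.2% higher and 4.29% lower of all genes, the higher count of energy genes is near the general share. Gpx4 (0.89), a selenoprotein of the midpiece, Spata19 (0.74), Armc12 (0.64) and Cox6b2 (0.72) were the higher sheath genes, and Vdac2 (-0.64) the lower one. Armc12 and Vdac2 were not called with 10% or more. Gapdhs rose by 0.76, from 1911 to 3414 CPM (median 2141) in WT to 3500 and 3601 CPM in Cul4a (adjusted p = 0.018, edgeR), and Gpi1 by 0.71. Eno4 and Pfkp fell, with -1.42 and -0.68, but neither was called with 10% or more (-0.95 and -0.15). Among mitochondrially encoded genes 6 of 10 rose in all members, led by mt-Cytb, with 178 to 274 CPM (median 241) in WT and 546 and 527 CPM in Cul4a (1.40, adjusted p = 1.4e-07, edgeR). The summed mitochondrial share, most of which is ribosomal RNA, was 0.971% and 1.22% in Cul4a and 0.328% to 2.59% in WT. With 10% or more mt-Cytb alone was called (0.67, adjusted p = 0.031, edgeR).

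Of 15 genes of cytoplasm removal and the ubiquitin system, 2 were higher and 1 lower, near the 12.2% and 4.29% of all genes. With 10% or more 3 were higher and 1 lower of 14. Ubb, a polyubiquitin gene, had 1025 to 1791 CPM (median 1113) in WT and 517 and 524 CPM in Cul4a and fell by 1.09 (adjusted p = 0.0037), and by 0.93 with 10% or more (adjusted p = 0.00091, edgeR). Rnf151 and Spem1 rose by 0.85 and 0.87. Dda1, a subunit of CUL4 ligases, had 181 to 283 CPM (median 227) in WT and 371 and 454 CPM in Cul4a. It rose by 1.05 (adjusted p = 0.00047) and by 0.97 with 10% or more (adjusted p = 6.7e-05, edgeR). Dda1 was the 1 called gene of 8 in the list of the ligase and Cnp, a count near the 12.2% of all genes.

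The acrosome list had 2 lower genes of 18 in all members, Zpbp2 (-1.20) and Spam1 (-1.07), and 3 with 10% or more, Zpbp2 (-1.08), Zpbp (-0.90) and Spaca7 (-1.30). Zpbp2, a zona pellucida binding protein gene, had 233 to 530 CPM (median 438) in WT and 174 and 152 CPM in Cul4a. The manchette list had 4 lower genes of 13 in all members, while with 10% or more it had 2 higher, Sun3 (0.91) and Spag4 (0.71), and 0 lower. The lists of stored mRNA and of haploid transcription had 1 lower gene each, Pabpc2 (-0.95) and Tbp (-0.85), and none of either was called with 10% or more. Of the 6 genes of a Cul4a component that the study chose on these samples, 5 were higher and 1 lower. They are Hist1h2al, Csmd1, Jakmip2, Tagln2, Map2k7 and Lpo. That choice makes them no independent evidence, also where they are named below. Of the 11 genes of its batch component 0 were called.

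Several of the genes with the smallest adjusted p had few UMIs in 1 of the strains. Rps13-ps1, a pseudogene copy of the ribosomal protein gene Rps13, had 0 to 0.577 CPM in mechanical WT members and 187 and 166 CPM in Cul4a (752 and 660 UMIs; adjusted p = 1.3e-30, edgeR). Rps13 itself had 188 to 616 CPM (median 250) in WT and 132 and 134 CPM in Cul4a (adjusted p = 0.064, edgeR), and was called lower with 10% or more (-1.17, adjusted p = 2.7e-05, edgeR). The pseudogene and its parent can share reads, so the split between them is uncertain, as it is for Tpt1-ps3, which had 1.81 to 11.3 CPM in mechanical WT, 28.9 and 90.9 CPM in enzymatic WT and 33.5 and 40.8 CPM in Cul4a. Hist1h2al, a histone H2A gene, had at most 6.42 CPM in WT and 110 and 65.1 CPM in Cul4a (6.67, adjusted p = 1.4e-22, edgeR). Csmd1, a large membrane protein gene, had at most 1.61 CPM in WT and 33.3 and 31.2 CPM in Cul4a. Bloc1s6, a subunit of a complex for lysosome-related organelles, had 2.27 to 12.1 CPM in WT and 81.0 and 76.5 CPM in Cul4a. Ttr, a thyroxine carrier gene, had 0 UMIs in 9 mechanical WT libraries and 67 and 44 UMIs in Cul4a, which makes it at least 52.7-fold higher against a floor of 3 UMIs over the WT group. Gm16212, D630024D03Rik, Tagln2, Gss, Gm15485 and Gm15920 completed the 12 higher genes, with log2 differences of 3.25 to 5.97, and all 12 were called with 10% or more.

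Among lower genes after Grtp1, Dapp1, a signalling adaptor gene, had 16.9 to 39.3 CPM in WT and 0.993 and 0.503 CPM in Cul4a, and Gm12108 had 7.49 to 15.9 CPM and 0.248 and 0.252 CPM. Map2k7, a kinase of the JNK pathway, had 68.5 to 131 CPM (median 104) in WT and 23.1 and 18.9 CPM in Cul4a. Its difference was -2.09 in all members (adjusted p = 5.2e-09) and -4.11 with 10% or more (adjusted p = 3.1e-30, edgeR). RP24-73K7.4, Ammecr1l, Wdr16, Hyal6, 4933405E24Rik, Wwtr1, 4933427E13Rik and Pkd2l2 completed the 12, with differences of -1.57 to -4.84.

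X-linked UMIs in members were 2.00 per 100 autosomal UMIs in both Cul4a libraries and 1.41 to 1.86 in mechanical WT. Levels like those of Cul4a were not confined to it. The enzymatic libraries WT1 and WT2 had 1.80 and 2.28, and the CNP libraries 1.59 and 2.01. For Cul4a against mechanical WT, a two-sided exact permutation test over libraries gave p = 0.0182, the smallest this design allows. Adjustment over 20 tests of 10 measures gave 0.0606. Some of these measures are set by the rule, so that adjusted value is uncertain and may be too small. The X-linked difference of 0.468 was 0.0813 with 10% or more (exact permutation p = 0.236), and 0.376 with all WT libraries as 1 group (exact permutation p = 0.0641). The share of somatic markers was 0.0836% and 0.106% in Cul4a and 0.0401% to 0.0726% in WT, with the same p values, and the difference of 0.0393 percentage points was 0.00449 with 10% or more (exact permutation p = 0.436). The ratio of protamine to all 4 genes' UMIs overlapped between Cul4a (65.6% and 66.6%) and WT (64.5% to 69.8%).

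CNP members were few, 228 and 94 barcodes with 188794 and 62307 UMIs, so small differences were not detectable at this depth. Cnp itself had 0 to 6.42 CPM in WT members and 1 and 0 UMIs in the CNP libraries. Of 19174 genes, 6 were higher (0.0313%) and 50 lower (0.261%) than in WT, with a median of -0.71 over all genes; DESeq2, whose scaling put that median at 0.31, called 14 higher and 41 lower. Both CNP libraries lay above every mechanical WT library in 3.93% of genes and below every one in 9.90%. Leaving out CNP 1 or CNP 2 leaves 1 CNP library, with the spread taken from the other groups, so calls from those fits are not given. In members with 10% or more 1 gene was higher (0.00767%) and 51 lower (0.391%). These members were only 36 and 15 barcodes in the CNP libraries, so CNP values with 10% or more are imprecise.

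Genes beside Cnp were 3 of the 6 higher genes. Dnajc7, a chaperone cofactor gene that overlaps Cnp on chromosome 11 (chr11:100582818-100620168, GRCm38, minus strand), had 180 to 288 CPM (median 208) in WT and 508 and 546 CPM in CNP, and rose by 1.07 ± 0.24 (adjusted p = 0.018, edgeR). Ttc25, an axonemal gene 2.34 kb away, had 165 to 252 CPM (median 211) in WT and 461 and 514 CPM in CNP (1.04 ± 0.25, adjusted p = 0.042, edgeR). Nkiras2, an inhibitor of NF-kappa-B signalling 27.5 kb away, had 81.3 to 136 CPM (median 94.1) in WT and 281 and 193 CPM in CNP (1.14 ± 0.27, adjusted p = 0.032, edgeR). All 3 were higher with 10% or more as well, with differences of 1.42 (Ttc25), 0.98 (Dnajc7) and 1.23 (Nkiras2) but adjusted p of 0.23 to 0.58. DESeq2 called all 3. Of 10 genes at 20 CPM within 500 kb, the translation factor gene Eif1 was called lower (-3.03), and the remaining 6 were not called.

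**Figure D5:**
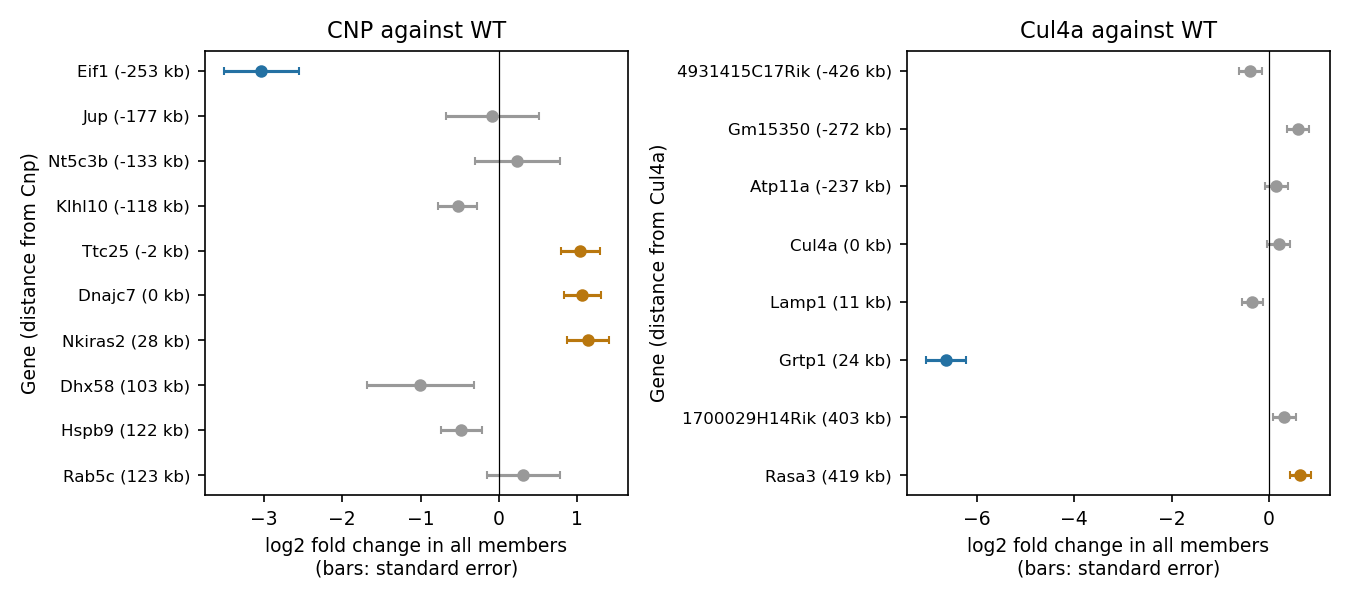
Log2 fold change in all members (x axis, with standard error) of genes at 20 CPM within 500 kb of Cnp (left, CNP against WT) and of Cul4a (right, Cul4a against WT), ordered by distance; orange and blue points passed an adjusted p of 0.05. The 3 genes within 28 kb of Cnp lie between 1.04 and 1.14, and Grtp1, 24 kb from Cul4a, lies at -6.64.

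The other 3 higher genes were Lcn2, an iron-binding lipocalin, with 23.5 to 71.0 CPM (median 40.7) in WT and 164 and 225 CPM in CNP (1.91 ± 0.35, adjusted p = 0.0016, edgeR), Irs1 and Cyp11a1. Irs1 rested on 3 and 2 UMIs. Cyp11a1, the first enzyme of steroid synthesis and a Leydig marker, rested on 6 and 8 UMIs (31.8 and 128 CPM against 5.04 to 14.98 CPM in WT) and had 0 UMIs in CNP members with 10% or more, where its fitted difference was -3.42. It was the 1 called gene of 7 in the Leydig list, whose summed level was 201 and 369 CPM in CNP and 106 to 286 CPM in WT. The other marker lists had 0 called genes.

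Ribosomal protein genes made up much of the lower side. Rps7 had 257 to 556 CPM (median 318) in WT and 31.8 and 32.1 CPM in CNP and fell by 3.62 ± 0.48 (adjusted p = 8.9e-06, edgeR). Rpl11 had 272 to 529 CPM and 10.6 and 16.0 CPM. Rps13, Rpl7a, Rpl9 and Rps27a had 0 UMIs in both CNP libraries, which makes them at least 20.9-fold, 9.23-fold, 8.02-fold and 6.91-fold lower than the WT median against a floor of 3 UMIs over both libraries. Of 83 ribosomal protein genes tested, 27 were called lower and 0 higher, and 58 lay below every mechanical WT library, against the 9.90% of all genes given above. Their median difference was -2.13, or -1.81 with the 18 genes at 0 UMIs set at that floor. With DESeq2 21 were lower and 0 higher (median -1.77). Summed over the family, members held 6361 and 5938 CPM in CNP and 11592 to 28298 CPM (median 13727) in mechanical WT. With 10% or more 24 were lower. The median difference in all members, with no floor set, was -3.05 without CNP 1 and -2.22 without CNP 2. In Cul4a members 18 of the 83 were higher and 1 lower (median 0.49), beside 12.2% and 4.29% of all genes, and DESeq2 called 7 higher and 1 lower.

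Eif1 had 643 to 3091 CPM (median 912) in WT and 191 and 128 CPM in CNP, and fell by 3.03. Other genes of small adjusted p were the chaperone gene Hsp90aa1 (-2.54), Tpt1 (-4.14), the ubiquitin conjugating enzyme gene Ube2n (0 and 1 UMIs) and Rps12. The study's own batch component, chosen on these samples and so no independent evidence, had 10 of 11 genes lower. The study proposes sequencing platform, MiSeq against HiSeq, as the source of that component. Both CNP libraries and all mechanical WT libraries but WT3 were HiSeq. With HiSeq libraries alone 44 ribosomal protein genes were called lower. The part of platform in these calls was not tested, and age and day cannot be told apart from strain.

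The spermatid lists held few calls in CNP. The mitochondrial sheath list and the stored mRNA list had 1 lower gene each of 13 and 14, and the lists of chromatin compaction, outer dense fibre and fibrous sheath, glycolysis, cytoplasm removal, haploid transcription, acrosome, manchette, motility and mitochondrial genes had 0. Their medians lay between -0.80 and -0.03. Prm2 had 13816 to 33495 CPM (median 20622) in WT and 19015 and 13803 CPM in CNP (-0.57), and with 10% or more it had 43926 to 54576 CPM in WT and 40988 and 28284 CPM in CNP, a log2 difference of -0.96; it is a gene of the rule, so no test is given. Prm1 was not lower: it had 20356 and 15937 CPM in CNP, within the 5272 to 26807 CPM of mechanical WT. The Prm1 to Prm2 ratio was 1.07 and 1.15 in CNP, above every WT library (0.382 to 0.853). Tnp2 had 10551 and 12904 CPM in CNP and 5641 to 11378 CPM in mechanical WT. The protamines' part of the UMIs over the 4 genes was 64.0% and 57.5% in CNP and 64.5% to 69.8% in WT, below every mechanical WT library. The difference of -6.48 points was -9.69 without CNP 1 and -3.26 without CNP 2.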

How the data were processed

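The deposited files hold, per the labels and file headers, raw UMI counts of genes in barcodes, 1 table per library. The authors aligned reads to the mouse genome and wrote count tables without normalization; the submitters' processing notes name STAR 2.5.3a, bcl2fastq, mm10 and GRCm38. Members and lists were chosen with earlier results of these data known. UMIs of members were summed per library. Strains were compared with edgeR 4.0.16 (TMM, quasi-likelihood test, 1 model for 9 mechanical WT, 2 enzymatic WT, 2 Cul4a and 2 CNP libraries, genes with at least 5 counts, Benjamini-Hochberg) in R 4.3.3, DESeq2 1.42.0 being an alternative. Library measures were tested by exact permutation (scipy 1.17.1). The tests planned for the share of members and for UMIs per member are not given, as the rule uses these values. They were still counted in the adjustment over 20 tests. Ratios within libraries used CPM + 10. The fits were tested on simulated data. Named were the genes of the rule and markers; 2 to 6 genes a list by level, difference or test; the 12 genes of smallest adjusted p in each direction with both mutant libraries outside the range of mechanical WT; up to 15 genes of largest ratio among members; and Cul4a and Cnp. Some named genes (neighbours of Cnp and Cul4a, ribosomal protein genes) and the 10% and 5% divisions were chosen after the values were seen. In all members the depth of 62307 UMIs in the smallest mutant sum sets the precision. Precision is lower with 10% or more, where the CNP sums came from 36 and 15 barcodes. Floors cover counting error only. Gene positions came from GENCODE and RefSeq symbols (1452 of 29244 symbols unmatched). One of the genes named by adjusted p is not reported here.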

Additional observations from a re-analysis of the deposited data

Results flagged for a closer look

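The share of members among protamine-positive barcodes moved to opposite sides of WT in the mutants, by 10.5 points in Cul4a and -17.8 points in CNP, with every Cul4a library above and every CNP library below the mechanical WT libraries (71.8% to 85.0%). With each barcode thinned to 300 UMIs the Cul4a difference was 1.80 points, with both libraries (63.2% and 64.8%) within the mechanical WT range, and the CNP libraries lay below it. The difference between the mutants was not tested.

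WT3, the 1 MiSeq library of mechanical dissociation, lay far from the other 8 mechanical WT libraries in 11 of 30 measures examined in this way. These measures depend on each other and include the levels of the 18 genes of the rule, so the count carries no test. Its members had a median of 241 genes at 300 UMIs, against 261 to 268 in the others. Spermatocyte markers took 0.0471% of its UMIs, against 0.111% to 0.149%. Of its members, 47.6% had a protamine share of 10% or more, against 0.683% to 15.5%. Its levels in CPM were 26806.5 for Prm1, 33495 for Prm2, 593 for Ttc24, 426 for Prss58, 950.3 for Tex37, 434 for Cstl1, 238 for Prss52 and 2.14 for Cul4a, which was 24.8 to 34.0 in the others.

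The rule also selected barcodes in sorted libraries used in no comparison: 9 primary spermatocyte barcodes (4.52% of that library), 28 secondary spermatocyte barcodes (7.04%) and 110 spermatid barcodes (36.8%).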

How the results depend on the processing

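Counts moved with the settings for protamine share, depth, libraries and method, and the cause of a change was not tested. Main counts were 2339 higher and 823 lower genes in Cul4a and 6 and 50 in CNP. Cul4a counts (higher, lower) were 1535 and 498 with at least 500 UMIs, 579 and 350 thinned to 300 UMIs, 1035 and 225 with at least 5% and 749 and 110 with at least 10% (both chosen after seeing the data), and 1103 and 184 with all WT libraries as 1 group. The higher count was 1208 without members above 4 times the median UMIs, 969 with DESeq2 and 1134 with filterByExpr; the lower count was 1902 with HiSeq libraries alone. CNP higher counts were 1 with at least 500 UMIs, 3 with a share of 2%, 2 thinned, 1 with 5%, 1 with 10%, 14 with DESeq2, 2 with filterByExpr and 0 with WT as 1 group; lower counts were 84 with at least 200 UMIs, 76 without members above 4 times the median, 21 with filterByExpr, 102 with no filter, 107 with HiSeq libraries and 14 with WT as 1 group. Leaving out 1 library at a time gave 719 to 2643 higher and 105 to 1510 lower in Cul4a (719 and 105 without Cul4a 2, 780 and 166 without Cul4a 1, 1258 lower without WT2 and 1510 without WT3) and 0 to 6 higher and 0 to 94 lower in CNP (0 and 0 without CNP 1, 0 and 15 without CNP 2, 3 higher without Cul4a 1 or Cul4a 2, and 77, 82, 82, 93 and 94 lower without WT3, WT5, WT9, Cul4a 1 and Cul4a 2). Late against early gave 1 higher gene with at least 500 UMIs, with a share of 2%, with sums at least 2 times apart and without WT6 (0 to 1 over all libraries left out). With 10% it gave 127 higher and 53 lower, but over 4 libraries, where 1 sign in every library is a weaker demand. The share of members differed by 6.07 (at least 500 UMIs), 4.19 (late sum at least 2 times early), 1.80 (thinned) and 6.83 points (10%) in Cul4a and by -5.54 in CNP with at least 500 UMIs. It differed by -28.3 (at least 200 UMIs), -10.9 (share of 2%) and -11.1 points (10%) in CNP.

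Replicate numbers are shared only as numbers: the difference between replicates 1 and 2 correlated with that of WT1 and WT2 by 0.179 (Cul4a) and 0.143 (CNP) over 3255 genes. A fit with a replicate block, which needs all WT libraries as 1 group, called 112 higher and 128 lower in Cul4a and 14 and 157 in CNP; in it Tfam (-0.14) and Tpt1-ps3 (-0.75) changed sign in Cul4a.

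Signs also changed for Cyp11a1 in CNP (-4.39 with 5%, -3.42 with 10%); for late against early Hnrnph1 (0.10) and Tdrd6 (0.0270) when thinned, and Glipr1l2 (0.81), Ide (1.73), Hnrnph1 (1.34) and Rsph1 (0.83) with 10%; and for untested or overlapping library measures. In CNP these were median UMIs (169.8 with at least 500 UMIs), genes per member (-3.83 with 500 UMIs, -2.25 with 2%, -1.47 with 10%, -0.875 with HiSeq libraries or without WT3, from -0.875 to 3.33 with 1 library left out), X-linked UMIs (-0.0583 with 10%), spermatocyte markers (-0.0231 with 500 UMIs, -0.0157 with 2%, -0.00697 with HiSeq libraries or without WT3, from -0.0359 without CNP 1 to 0.0396 without CNP 2), somatic markers (-0.00643 with 500 UMIs) and the part with 10% or more (-1.81 with 200 UMIs). In Cul4a they were mitochondrial share (0.0610), the protamine part (0.640) and erythroid markers (0.00037) without members above 4 times the median, and the protamine part (0.0360) with 10%. For genes named between strains, 2212 planned values kept direction and side of the threshold, 198 lost the call, 8 gained it and 2 changed sign. These values include fits with 1 mutant library, whose calls rest on the spread of other groups.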
